A study of Mus musculus with 10 samples.

Results

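The lysosome is the acidic compartment in which cells break down proteins, sugars and lipids taken up from outside or delivered from within. Its soluble hydrolases work at the low pH kept by a proton pump (the V-ATPase), its membrane is lined by heavily glycosylated proteins, and calcium and sodium channels in that membrane signal its state. Many of its genes carry E-box elements bound by the transcription factor Tfeb and its relatives, and monocytes, macrophages and dendritic cells, which take up and digest material and process antigen, are rich in lysosomes.

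Chromatin near 37 lysosome genes is described here in mouse bone marrow progenitors profiled by ATAC-seq, which marks accessible DNA by the insertions of a transposase. Peaks of all 10 deposited lists on chromosomes 1 to 19 and X were merged wherever they shared 1 bp. A merged region belonged to a lysosome gene when its centre lay inside the gene or within 20 kb of it, in mm10 coordinates. This gave 333 of 114366 regions, and all 37 genes were matched. Of all regions, 87823 lay within 20 kb of some protein-coding gene. No region belonged to more than 1 of the 37 genes, but the lysosome gene was the nearest protein-coding gene for only 205 of the 333 (61.6%), so regions in the flanks may belong to a neighbour.

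The libraries form 5 groups of 2, all from bone marrow of C57BL/6 mice and sorted by surface markers after magnetic selection, with 5000 to 7200 cells per library. Of the wild-type groups, LT-HSC are the long-term haematopoietic stem cells and LMPP the lymphoid-primed multipotent progenitors. MDP are progenitors of monocytes and dendritic cells, and CDP the common progenitors of dendritic cells. The fifth group is MDP from IRF8-deficient mice (IRF8KO MDP). IRF8 is a transcription factor needed for monocyte and dendritic cell development. How the IRF8 allele was made, the age and sex of the mice and whether animals were pooled are unknown from the sources used here. The labels call the LMPP libraries short-term stem cells in 1 field and LMPP in the title, and their gate includes CD135 (Flt3), which marks LMPP. The study names biological duplicates for the wild-type cells. For the knockout libraries nothing says whether they came from separate animals, so p-values measure the spread between libraries.

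Libraries held 4790046 to 10166833 tags, with the 2 CDP libraries deepest, and 31325 to 69598 peaks. LT-HSC replicate 1 stood apart with the shortest list and 19.32% of its tags in peaks, against 38.06% to 53.74% in the others. Regions near 7 stem cell genes were detected most often in LMPP (86 and 92 of 120) and least in IRF8KO MDP (29 and 28). Regions near 6 monocyte-dendritic genes numbered 4 and 13 of 64 in LT-HSC, 38 and 36 in wild-type MDP and 55 and 49 in CDP. Around Irf8 itself, 0 and 3 of 15 regions were detected in LT-HSC, 4 and 3 in LMPP, 11 and 8 in wild-type MDP, 12 and 10 in CDP and 7 and 8 in IRF8KO MDP. Peaks around a gene do not show whether it is deleted, so these counts do not check the genotype.

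More lysosome gene regions were detected in MDP and CDP than in stem cells and LMPP. The counts of the 333 were 106 and 165 in LT-HSC, 164 and 161 in LMPP, 214 and 220 in wild-type MDP, 234 and 223 in CDP, and 184 and 207 in IRF8KO MDP. In such bulk samples, a region open in fewer cells and a region less open in each cell cannot be told apart. Group means were 135.5 ± 41.7, 162.5 ± 2.12, 217.0 ± 4.24, 228.5 ± 7.78 and 195.5 ± 16.3 regions (SD, n = 2 each). The 2 MDP libraries lay above both LMPP libraries, while CDP and wild-type MDP lay close together and the 2 LT-HSC libraries differed from each other by more than LMPP did from either. As a share of the 333, the mean went from 48.75% in LMPP to 65.2% in MDP, whereas the share of all regions detected went from 54.2% to 53.3%. Per 1000 regions detected in a library, lysosome gene regions numbered 3.38 ± 0.184 in LT-HSC, 2.62 ± 0.0566 in LMPP, 3.56 ± 0.0141 in MDP, 3.455 ± 0.0495 in CDP and 3.865 ± 0.12 in IRF8KO MDP. LMPP was thus the lowest group on this scale. With every list trimmed to the length of the shortest, the means were 105.5 in LT-HSC, 95.0 in LMPP, 127.0 in MDP, 137.5 in CDP and 129.5 in IRF8KO MDP, so that LT-HSC then lay above LMPP. The plot of the share detected sets both quantities beside each other.

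**Figure D1:**
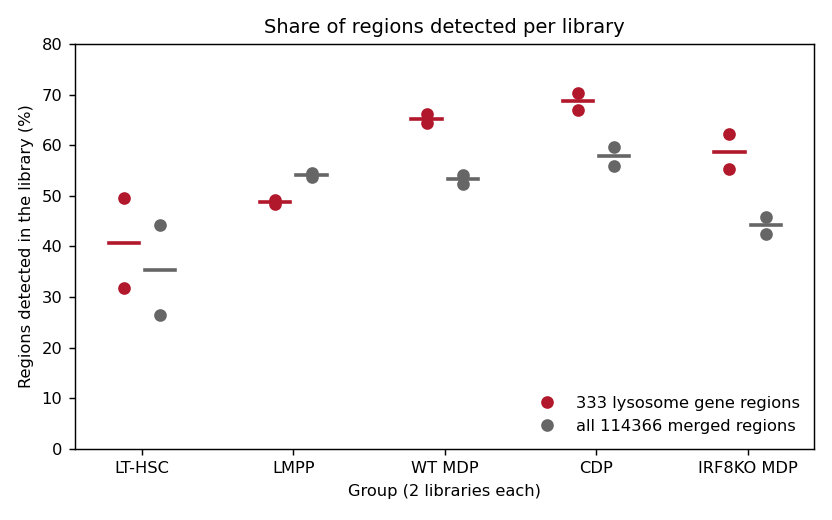
Share of regions detected in each library (percent, y axis) for the 5 groups (x axis). Red points are the 333 lysosome gene regions, grey points all 114366 merged regions, and short lines the mean of the 2 libraries. In LMPP the red points lie below the grey (48.75% against 54.2% on average), and in MDP, CDP and IRF8KO MDP above them.

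The regions over transcription starts were open in nearly all libraries. Of 33 regions that cover a RefSeq start of a lysosome gene (32 genes, since the starts of the other 5 were not placed), 30 (90.9%) were detected in all 10 libraries, against 14 of 117 inside the gene bodies and 40 of 183 in the flanks (21.9%). Here and below, a region over a start of those 5 genes was counted as inside or flank by its centre. Among the 14 were regions over a gene end of Ctsb, Ctsh, Npc1 and Tpcn1. Between 30 and 33 of the 33 start regions were detected in every library. The start regions also stood near the top of the lists: their median row lay 17.5% and 14.9% down the list in LT-HSC, 19.2% and 15.5% in LMPP, 12.1% and 11.6% in MDP, 9.01% and 7.97% in CDP and 15.1% and 15.5% in IRF8KO MDP. The exceptions were Ctss (cathepsin S, the protease that trims the invariant chain in antigen-presenting cells), whose start region was absent from both LT-HSC libraries and LMPP replicate 2, Hexa (hexosaminidase A), absent from LT-HSC replicate 1, and the downstream start of Psap (prosaposin, precursor of the saposins that help degrade sphingolipids), absent from both LT-HSC libraries. Across the 4 comparisons, 1 start region was gained, that of Psap, and 0 were lost.

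Promoter sequence was taken from the RefSeq table (GRCm38.p6, the same assembly as mm10), which holds windows from 250 bases before to 50 bases after a start for 32 of the 37 genes, 37 windows in all. The letters TCACGTGA, an extended E-box of the Tfeb and Mitf family, stood in 6 of 37 windows (16.2%), against 0.974% of all 32851 windows. The shorter E-box CACGTG, which the longer one contains, stood in 11 of 37 (29.7%), against 7.15%. Of the letters of PU.1-type sites, GAGGAAGT stood in 4 of 37 (10.8%), against 3.2%. GGAANNGAA, the core of composite ETS-IRF sites, stood in 4 of 37 (10.8%), against 8.24%. Both strands were searched, and a match is a description of the letters, not of binding. The genes with TCACGTGA were Atp6v0d1, Atp6v1a, Ctsa, Ctsd, Gla and Mcoln1, which differ in role: 2 proton pump subunits, 2 proteases, a glycosidase and a calcium channel.

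The stretches below show where these letters stand upstream of the start, 5′ to 3′ on the gene's strand, with the matching letters in capitals. Each lies in a start region detected in all 10 libraries. Lamp1 (the main lysosomal membrane glycoprotein) was added after its sequence was seen, since it carries CACGTG 4 times. Ctsc (cathepsin C, which activates granule serine proteases) is shown for the reverse complement of GAGGAAGT. The match of Atp6v0d1 lies past its start and is not printed. The stretches lie at chr2:164833735-164833772 on the plus strand (Ctsa), chr7:142387894-142387951 on the minus strand (Ctsd), chr8:3500423-3500505 plus (Mcoln1), chr16:44139359-44139416 minus (Atp6v1a), chrX:134601168-134601255 minus (Gla), chr8:13159075-13159160 plus (Lamp1) and chr7:88277909-88277966 plus (Ctsc).
Ctsa: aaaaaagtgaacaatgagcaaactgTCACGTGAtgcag
Ctsd: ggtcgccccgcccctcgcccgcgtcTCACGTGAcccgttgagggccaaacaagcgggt
Mcoln1: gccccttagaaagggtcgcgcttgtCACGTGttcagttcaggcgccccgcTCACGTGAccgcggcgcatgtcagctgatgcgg
Atp6v1a: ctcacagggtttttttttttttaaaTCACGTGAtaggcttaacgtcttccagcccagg
Gla: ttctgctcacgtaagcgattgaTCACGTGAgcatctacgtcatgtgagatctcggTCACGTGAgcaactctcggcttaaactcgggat
Lamp1: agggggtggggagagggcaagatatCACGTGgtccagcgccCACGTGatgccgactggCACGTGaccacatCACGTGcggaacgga
Ctsc: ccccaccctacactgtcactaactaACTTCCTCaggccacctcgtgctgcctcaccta

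Changes between groups were read in 2 ways. For a gain, each library of the later group had to have a peak in the region and each library of the earlier group none, and a loss was the reverse. This call has no test, since 2 against 2 libraries cannot give an exact p below 0.333. Peak strength came from the row order of the lists, because their score column holds a single value: the strength score is log2 of 31325 (the length of the shortest list) over the row position, 0 for a region further down or without a peak, so that 1 unit is a 2-fold change in list position. Row positions of replicates correlated with Spearman's rho of 0.883 to 0.946 across regions. The score was tested with limma across 50275 regions, and adjusted p-values are Benjamini-Hochberg over all of them. A single estimate of spread per region is shared by the 5 groups, and a group scoring 0 in both libraries adds no spread to it. The SE and p-value of such a region can therefore be too small. Of the lysosome gene regions, 177 of 333 had a score above 0 in at least 2 libraries and were tested. Neighbouring comparisons share a group (MDP enters 3 of them), so their values are given side by side and not as support for each other.

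The step from LMPP to MDP brought the highest count of gained lysosome gene regions. In this comparison, 54 of 333 regions were gained (16.2%), against 10.3% of all regions and 10.0% of regions within 20 kb of a protein-coding gene. Only 12 were lost (3.6%), against 10.6% of all regions and 9.53% of those near genes. No start region was gained or lost: 35 gained regions lay in flanks and 19 inside genes. By gene, 22 of 37 had a net gain, 4 a net loss, 4 as many gained as lost and 7 no change. Of 18458 protein-coding genes with a region, 33.1% had a net gain and 22.6% a net loss. With lists of equal length, 55 were gained and 11 lost. Leaving out LMPP replicate 1 or wild-type MDP replicate 2 gave 19 lost regions in each case. Regions near marker genes of other cells were gained at this step too: 16 of 54 near neutrophil genes (29.6%) and 9 of 39 near mature macrophage genes (23.1%). Near the monocyte-dendritic genes, 15 of 64 were gained (23.4%). The part of neutrophil or macrophage cells in the result was not tested.

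**Figure D2:**
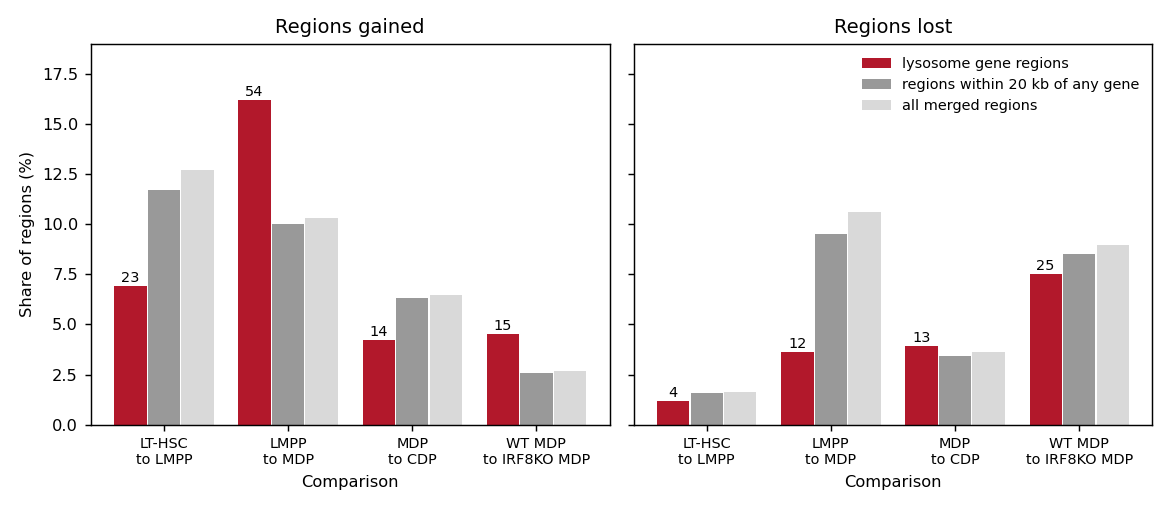
Share of regions (percent, y axis) gained (left) and lost (right) in each of the 4 comparisons (x axis). Red bars are lysosome gene regions with their count above the bar, dark grey bars regions within 20 kb of any protein-coding gene, light grey bars all merged regions. From LMPP to MDP the red bar is taller than both grey bars on the left (16.2% against 10.0% and 10.3%) and shorter on the right (3.6% against 9.53% and 10.6%).

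Of the 177 tested lysosome gene regions, 52 were higher in MDP in limma at an adjusted p under 0.05 (29.4%, against 20.3% of all tested regions) and 10 were lower (5.65%, against 20.2%). The median difference was 0.166 over the tested lysosome gene regions and 0 over all. The 52 lay at 14 starts, 18 places inside genes and 20 in flanks, and belonged to 23 genes. Without LMPP replicate 1 the count of higher regions was 33.

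The largest difference was at a protease gene. The region over the start of Ctsz (cathepsin Z, a carboxypeptidase), chr2:174435738-174440491, stood at rows 8449 and 8212 in LT-HSC, 3100 and 1537 in LMPP, 51 and 57 in MDP, 22 and 13 in CDP and 470 and 172 in IRF8KO MDP. It stood within the first 57 rows in wild-type MDP and CDP, with no overlap between LMPP and MDP. Its score was 3.84 ± 0.72 in LMPP and 9.18 ± 0.11 in MDP (SD, n = 2), a difference of 5.34 (SE 0.54, limma adjusted p 0.00033). Grn (progranulin, a secreted growth factor processed in lysosomes) behaved alike at its start, chr11:102428666-102433286, with rows 19918 and 24955 in LT-HSC, 19664 and 13408 in LMPP, 1412 and 927 in MDP, 435 and 600 in CDP and 1339 and 3430 in IRF8KO MDP. The LMPP to MDP difference was 3.83 (SE 0.47, adjusted p 0.00074). These start regions were detected in all 10 libraries, so the change was one of position in the list and not of detection. The stretch covered by peaks was also longer in MDP. It was 2845 and 3081 bp in LMPP and 4627 and 4449 in MDP at Ctsz. At Grn it was 1653 and 1700 bp in LMPP and 3593 and 3758 in MDP. A longer region can rank higher, and the part of width was not tested.

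Cd68 (the macrophage-rich relative of the LAMP proteins) followed at its start, chr11:69664607-69666869, a region chosen after its values were seen. Its rows were 14156 and 25770 in LT-HSC, 26187 and 29006 in LMPP, 5550 and 6073 in MDP, 4580 and 4413 in CDP and 6271 and 8399 in IRF8KO MDP. All 6 MDP and CDP libraries, knockout included, lay above all 4 LT-HSC and LMPP libraries. The difference from LMPP to MDP was 2.25 (SE 0.28, adjusted p 0.00085).

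Ctsd (cathepsin D, the main aspartic protease of lysosomes) gained a region 2.57 kb upstream of its start, chr7:142389780-142391014, which had the best mean list position of the gained regions. It had no peak in LT-HSC or LMPP, rows 12876 and 13740 in MDP, 27391 and 24059 in CDP, and 10556 and 9635 in IRF8KO MDP. It was therefore strongest in the knockout MDP and weakest in CDP among the groups that had it. The score rose by 1.24 from LMPP to MDP (SE 0.11, adjusted p 0.00019). The start region of Ctsd also rose in MDP, by 1.30 (SE 0.19, adjusted p 0.0016), after a fall of the same order from LT-HSC to LMPP described further on.

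By role, the counts below stand beside 10.3% of all regions gained and 10.6% lost. Among all 10 proteases, 18 of 97 regions were gained and 5 lost. Of all genes, 0.612% had a net gain of 5 or more, a share not matched for the number of regions per gene. Lgmn (legumain, an asparaginyl endopeptidase that processes antigens) gained 5 of 17 and lost 0. Its count per library was 2 and 6 in LT-HSC, 4 and 5 in LMPP, 10 and 12 in MDP, 13 and 13 in CDP, and 8 and 11 in IRF8KO MDP. When a peak and region had to overlap by 50% of each, the net gain of Lgmn was 1. Ctsc gained 3 of 11 and lost 1, Ctsb (cathepsin B) gained 2 of 8, and Ctsa, Ctsl, Ctss and Ctsz gained 1 each. Tpp1 (tripeptidyl peptidase) gained 1 and lost 1, and Ctsh (cathepsin H) gained 2 and lost 3 of 13.

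Ion channels of the lysosomal membrane gained 10 of 38 regions and lost 0. Tpcn2 is a sodium and calcium channel opened by a phosphoinositide lipid and by NAADP. It accounted for 6 of the 10 gains, a net gain that 0.265% of all genes, whatever their number of regions, reached. Of its 19 regions, 2 and 7 were detected in LT-HSC, 3 and 4 in LMPP, 12 and 12 in MDP, 12 and 12 in CDP, and 9 and 10 in IRF8KO MDP. The counts of MDP and CDP did not overlap those of LT-HSC and LMPP. Within the first 75% of each list, the net gain was 3. Mcoln1 (mucolipin, a lysosomal calcium channel) gained 2 of 7 and Tpcn1 (the sister channel of Tpcn2) gained 2 of 12. These gained regions of Mcoln1 and Tpcn1 were nearer to another protein-coding gene.

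The 19 Tpcn2 regions spread over the gene and its upstream flank. The start region, chr7:145282856-145284610, was detected in all 10 libraries, at rows 10421 and 8861 in LT-HSC, 19581 and 21927 in LMPP, 8955 and 11854 in MDP, 10530 and 9927 in CDP and 10150 and 9160 in IRF8KO MDP. It was lowest in LMPP: the score fell by 1.11 from LT-HSC (SE 0.17, adjusted p 0.0029) and was higher by 1.01 in MDP (SE 0.17, adjusted p 0.0033). The strongest region gained in MDP lay 85.6 kb into the gene, at chr7:145197901-145198937, with no peak in LT-HSC and LMPP and rows 17071 and 19666 in MDP, 22806 and 23679 in CDP and 24313 and 32919 in IRF8KO MDP. Its score rose by 0.77 from LMPP to MDP (SE 0.13, adjusted p 0.0026) and fell by 0.59 from wild-type to IRF8KO MDP (SE 0.13, adjusted p 0.017). Another gained region at 93.3 kb, chr7:145190421-145191039, was present in both MDP and both CDP libraries at rows 45372 to 57559 and in no other. A region 18.8 kb upstream, chr7:145302328-145303218, went the opposite way: it had rows 15989 and 17255 in LT-HSC and no peak elsewhere. At 12.9 kb, chr7:145270810-145271435 had a peak in both IRF8KO MDP libraries alone, at rows 43799 and 44006, near the end of those lists. Most changing Tpcn2 regions were weak, beyond row 31325 where the strength score is 0.

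**Figure D3:**
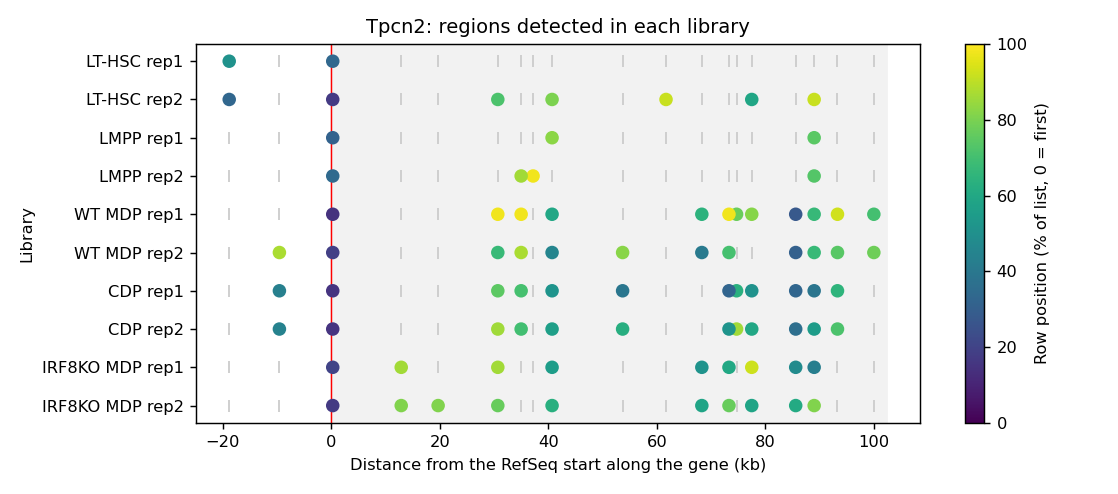
Map of the 19 Tpcn2 regions by distance of their centre from the RefSeq start in kb (x axis, positive along the gene) in each library (y axis). A filled point is a detected region, coloured by its row as a percent of the list (0 is the first row), a grey tick a region without a peak, the red line the start and the grey area the gene. The start region is filled in every row, and wild-type MDP and CDP rows hold 12 points each against 2 to 7 in LT-HSC and LMPP.

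Proton pump genes gained 6 of 21 regions and lost 0. Atp6v0d1 (a subunit of the membrane sector) gained 3 of 9, Atp6v1a (the catalytic subunit) 2 of 6 and Atp6ap1 (an accessory protein) 1 of 6. Per library the 3 genes together had 7 and 10 regions in LT-HSC, 10 and 9 in LMPP, 17 and 17 in MDP, 15 and 15 in CDP and 13 and 16 in IRF8KO MDP. The start region of Atp6v1a rose by 1.51 (SE 0.31, adjusted p 0.0075).

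Glycosidases, which strip sugars from glycoproteins and glycolipids, gained 7 of 70 regions and lost 2. Of all genes, whatever their number of regions, 1.46% had a net gain of 4 or more. Neu1 (the lysosomal sialidase) held 4 of the 7 glycosidase gains, among 10 regions. Its counts were 2 and 4 in LT-HSC, 2 and 2 in LMPP, 7 and 6 in MDP, 4 and 3 in CDP and 7 and 9 in IRF8KO MDP. Of the 4 gained regions, 1 had Neu1 as its nearest protein-coding gene, and within the first 75% of each list the net gain was 1. Hexa gained 2 of 13, and Gla (alpha-galactosidase A) lost 1 of 6. Gaa, Gusb, Man2b1 and Manba had neither a gain nor a loss by detection.

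Lipid enzymes and carriers gained 5 of 48 and lost 2. Psap and Lipa (lysosomal acid lipase) gained 2 each and Npc2 (a soluble cholesterol carrier) gained 1. At 3.96 kb upstream of the first start of Psap, chr10:60272908-60274435 (chosen after its values were seen) had no peak in LT-HSC, rows 52639 and 49734 in LMPP, 14185 and 12099 in MDP, 8617 and 8997 in CDP, and 33232 and 34465 in IRF8KO MDP. MDP and CDP libraries lay above all others. The score rose by 1.26 from LMPP to MDP (SE 0.11, adjusted p 0.00016). At 14.4 kb upstream, chr10:60262238-60264217 (also chosen after its values were seen) had rows 16862 and 15350, 9742 and 8588, 4674 and 5085, 3007 and 3467, and 14080 and 12205 in LT-HSC, LMPP, MDP, CDP and IRF8KO MDP. It rose by 0.91 (SE 0.15, adjusted p 0.0029). Over all 12 regions near Psap, 3 and 5 were detected in LT-HSC, 8 and 8 in LMPP, 9 and 11 in MDP, 9 and 11 in CDP and 7 and 8 in IRF8KO MDP.

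Grn gained 2 of 7 regions, which were nearer to another protein-coding gene. The regulator Tfeb gained 2 of 11 regions. Its strongest changing region lay inside the gene span, 17.5 kb upstream of the nearest listed start, at chr17:47765892-47770610, with rows 30883 and 20344 in LT-HSC, 17771 and 9078 in LMPP, 1356 and 2265 in MDP, 1429 and 737 in CDP, and 11113 and 14165 in IRF8KO MDP. Wild-type MDP and CDP stood near the top of their lists, and knockout MDP lay within the range of LMPP. Peaks covered 1411 and 1786 bp of this region in LMPP, 3717 and 2808 in MDP and 1811 and 1522 in IRF8KO MDP. The score was 1.30 ± 0.69 in LMPP and 4.16 ± 0.52 in MDP, a difference of 2.86 (SE 0.47, adjusted p 0.0027). Among membrane glycoproteins, 4 of 41 regions were gained and 3 lost, beside 10.3% of all regions gained and 10.6% lost. Scarb2 (the receptor that carries glucocerebrosidase to lysosomes) gained 2 and lost 2, and Lamp1 gained the region 3.62 kb upstream of its start.

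A few regions moved down at this step. In a flank of Ctsc, 42.4 kb downstream of its start, chr7:88318017-88322870 had rows 17608 and 12617 in LT-HSC, 2544 and 2525 in LMPP, 17795 and 16488 in MDP, 19768 and 15576 in CDP and 18494 and 14027 in IRF8KO MDP. LMPP stood alone at the top, with closely matching replicates. The score rose by 2.56 from LT-HSC to LMPP (SE 0.22, adjusted p 0.00019) and fell by 2.76 from LMPP to MDP (SE 0.22, adjusted p 0.00012). Npc1 (the membrane cholesterol transporter that works with Npc2) had a region of the same kind inside the gene, chr18:12199346-12200781, at rows 13742 and 9431 in LT-HSC, 4818 and 3543 in LMPP, 27322 and 20768 in MDP, 20973 and 21620 in CDP and 33778 and 38423 in IRF8KO MDP. It fell by 2.53 from LMPP to MDP (SE 0.24, adjusted p 0.00023). The lost region with the best list position was near Tpp1, at chr7:105728146-105729028, with rows 25805 and 47760 in LT-HSC, 20889 and 23112 in LMPP and no peak in any later library. Asah1 (acid ceramidase), Ctsh, Gla and Npc1 had a net loss of 1 region each.

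**Figure D4:**
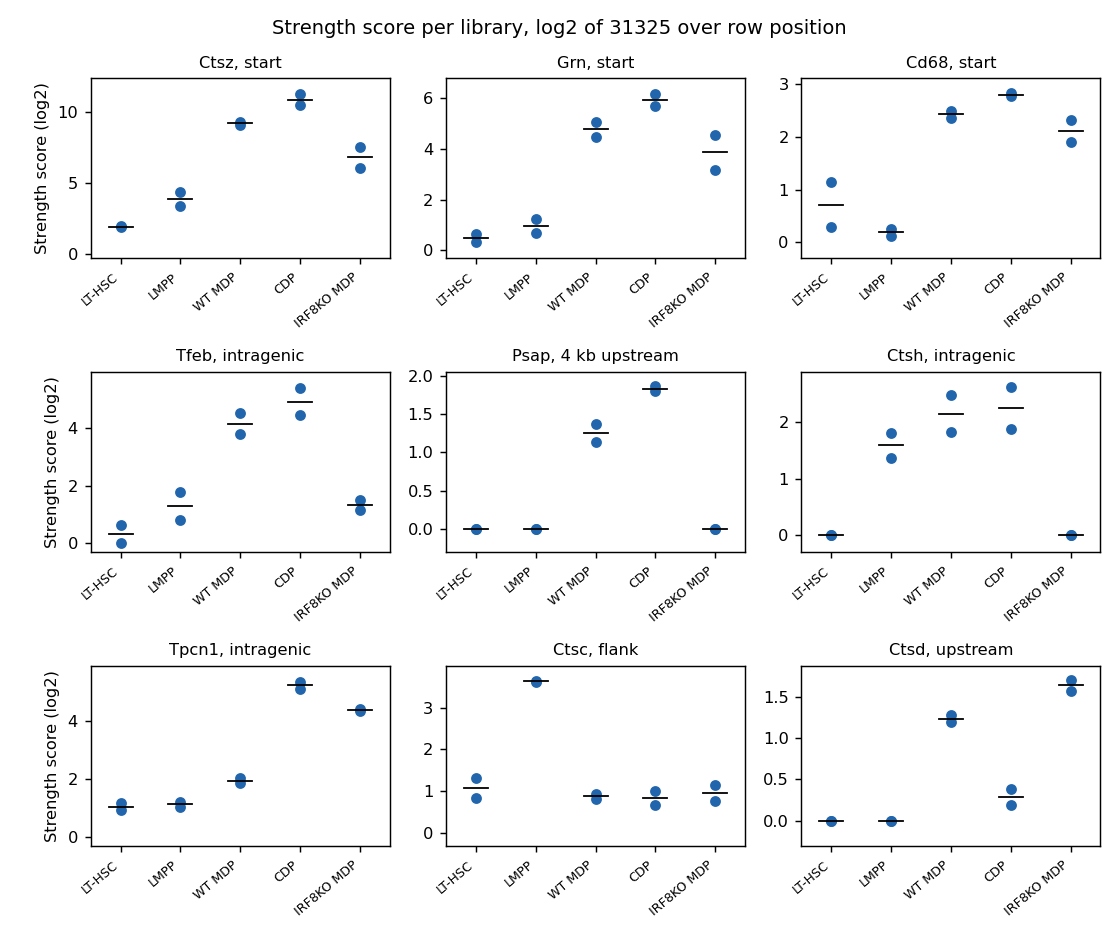
Strength score (y axis, log2 of 31325 over row position, 0 where the row is beyond 31325 or there is no peak) of 9 lysosome gene regions in the 5 groups (x axis). Points are the 2 libraries and lines their mean, and each panel has its own scale. Ctsz, Grn, Cd68, Tfeb and Psap are higher in wild-type MDP than in LMPP, the Ctsc flank is highest in LMPP, and the Tfeb, Psap and Ctsh regions are lower in IRF8KO MDP than in wild-type MDP.

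From LT-HSC to LMPP, few lysosome gene regions changed by detection. The count was 23 of 333 gained (6.91%, against 12.7% of all regions and 11.7% of those near genes) and 4 lost (1.2%, against 1.62% and 1.58%). A net gain was seen for 13 of 37 genes, against 39.9% of all genes, and a net loss for 2. The order of gained and lost regions was not stable. LT-HSC lists had 31325 and 52147 rows and LMPP lists 63349 and 64181. The part of list length was not tested apart from other differences between the lists. With equal list length 7 were gained and 15 lost. Without LT-HSC replicate 1, 24 were gained and 29 lost, and without LT-HSC replicate 2, 52 were gained. In limma 14 of 177 were higher in LMPP (7.91%, against 15.6%) and 29 lower (16.4%, against 15.3%). Leaving out single libraries gave 7 to 9 higher regions.

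Genes of lipid handling held 11 of the 23 gains, with 0 losses among their 48 regions, beside 12.7% gained of all regions. Psap, Npc1 and Npc2 gained 3 regions each and Asah1 and Smpd1 (acid sphingomyelinase) 1 each. Hexa and Ctss gained 2 each. Atp6v1a, Ctsa, Ctsh, Glb1, Lamp2 and Scarb2 had a net gain of 1 each. With equal list length the net change was 0 for Psap, Npc1, Npc2 and Hexa and 1 for Ctss. Of the gained regions the one with the best position covered the downstream start of Psap, chr10:60282075-60285339, which had no peak in LT-HSC and rows 21469 and 20940 in LMPP, 15684 and 13015 in MDP, 8718 and 9105 in CDP and 26178 and 22237 in IRF8KO MDP. Its score of 0.56 in LMPP (SE 0.13, adjusted p 0.017) missed the threshold whenever any of the 4 libraries was left out (adjusted p 0.059 to 0.074). The start region of Ctsz also rose in LMPP, by 1.93 (SE 0.54, adjusted p 0.033), a call that was lost without either LT-HSC library (adjusted p 0.12 and 0.1) or LMPP replicate 2 (0.18). Mcoln1 and Tpcn2 had a net loss of 1 region each.

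Of the 29 lower regions, 9 covered starts (of 32 tested), 4 lay inside genes (of 48) and 16 in flanks (of 97). Of the 4, those at Ctsb, Npc1 and Tpcn1 lay over an end of a gene whose start was not placed. The start of Ctsd, chr7:142386552-142388717, fell from rows 5900 and 6695 in LT-HSC to 21398 and 27182 in LMPP, and then stood at 9611 and 9946 in MDP, 10075 and 11991 in CDP and 7665 and 5967 in IRF8KO MDP. LMPP was below every other group. The score fell by 1.94 (SE 0.19, adjusted p 0.00035). A region of Tpcn1, chr5:120586664-120589617, which runs past the high-coordinate end of the gene and whose relation to its start was not placed here, had the same shape, with rows 2319 and 2317 in LT-HSC, 7990 and 7932 in LMPP, 3087 and 2537 in MDP, 2436 and 2882 in CDP and 3100 and 1938 in IRF8KO MDP, and its score fell by 1.78 (SE 0.24, adjusted p 0.0017). The start regions of Atp6v1a, Npc2 and Cd63 (a tetraspanin of lysosomes and exosomes) fell by 1.65, 1.32 and 1.12 (adjusted p 0.0067, 0.0036 and 0.021). Among flanks, regions of Gaa (acid alpha-glucosidase), Ctsz and Ctsh fell by 1.44 (SE 0.20, adjusted p 0.0019), 1.24 (SE 0.08, adjusted p 4.6e-05) and 1.23 (SE 0.17, adjusted p 0.0017). The Ctsz flank region had a mean score of 0 in every group but LT-HSC, so its SE can be too small.

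Between MDP and CDP, the counts for lysosome genes stayed near those of other regions. Here 14 regions were gained (4.2%, against 6.48% of all and 6.31% near genes) and 13 lost (3.9%, against 3.64% and 3.4%). Net gains were seen for 9 genes and net losses for 7, beside 26.3% and 12.5% of all genes. The genes with a net gain were Ctsh (2 of 13) and, with 1 each, Ctsa, Ctsl, Lamp2, Lgmn, Man2b1, Manba, Smpd1 and Tfeb. Neu1 and Tpcn2 had a net loss of 2 and Atp6v0d1, Atp6v1a, Ctsc, Ctss and Psap of 1. The CDP libraries were deeper (10166833 and 7985428 tags, against 5394861 and 5328234 in MDP), and the part of depth in these calls was not tested. Leaving out 1 of the 4 libraries gave 24 to 28 gained regions, and leaving out either MDP library gave 22 lost.

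Peak strength in CDP went up more often than down. In limma 25 of 177 were higher in CDP (14.1%, against 11.0%) and 8 lower (4.52%, against 7.46%). Without CDP replicate 1 or 2 the higher count was 11 or 15 and the lower count 1 or 3. Both leading regions lay inside Tpcn1. At chr5:120558061-120561641 the rows were 16655 and 13917 in LT-HSC, 15228 and 13601 in LMPP, 7748 and 8778 in MDP, 770 and 927 in CDP and 1480 and 1533 in IRF8KO MDP. CDP and knockout MDP stood far above wild-type MDP, with tight replicates. The score rose by 3.29 from MDP to CDP (SE 0.17, adjusted p 8.5e-05), and by 2.45 from wild-type to IRF8KO MDP (SE 0.17, adjusted p 0.00014). At chr5:120576551-120579973 the rows were 25551 and 15252 in LT-HSC, 11612 and 22447 in LMPP, 5911 and 14003 in MDP, 1149 and 1319 in CDP and 11211 and 12879 in IRF8KO MDP. This second region rose by 2.89 from MDP to CDP (SE 0.48, adjusted p 0.0066, and 0.052 without CDP replicate 1), while its knockout value lay within the range of wild-type MDP.

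Regions of Psap, Lipa and Lgmn also went up in CDP. Psap had 6 regions above the threshold, among them the one at 3.96 kb upstream (0.57, SE 0.11, adjusted p 0.011), and Lipa had 4, with differences of 0.45 to 0.75. The largest rises near Psap (1.72 and 0.92) and Lgmn (1.36) were in regions nearer to another protein-coding gene, as were some of the Lipa regions. The 2 largest decreases were at a flank of Tpp1, chr7:105738454-105739757, where rows went from 11708 and 9444 in MDP to 30085 and 21153 in CDP (a fall by 1.26, SE 0.25, adjusted p 0.014, lost without MDP replicate 2 or CDP replicate 1), and at the upstream region of Ctsd, which fell by 0.95 (SE 0.11, adjusted p 0.0013). The gained region with the best position was 21.8 kb from the start of Smpd1, chr7:105575533-105576739, with a peak in CDP alone, at rows 38042 and 30172. The lost region with the best position was inside Tpcn2, 68.3 kb from the start, chr7:145215389-145216112, with rows 39940 and 26410 in wild-type MDP, 26042 and 31642 in IRF8KO MDP and no peak in CDP, LMPP or LT-HSC.

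In MDP without IRF8, 25 lysosome gene regions were lost (7.51%, against 8.99% of all regions and 8.51% near genes) and 15 gained (4.5%, against 2.69% and 2.6%). By gene, 14 had a net loss (33.0% of all genes did) and 6 a net gain (8.49% of all genes). The knockout lists were shorter, with 50728 and 54277 peaks against 62130 and 64515 and 43.72% and 43.94% of tags in peaks against 51.25% and 53.74%. With equal list length the order turned, with 20 gained and 17 lost (all regions 4.35% and 5.65%). Leaving out either wild-type library or knockout replicate 2 gave 39 to 40 lost, and leaving out knockout replicate 1 gave 25 gained. In limma 15 of 177 were lower in the knockout (8.47%, against 8.85%) and 11 higher (6.21%, against 9.69%), shares below those of all tested regions. The order of these 2 counts depended on the scale of the score: without LT-HSC replicate 1 and with the next shortest list as the scale, 29 were higher and 19 lower.

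The largest decreases were at Tfeb, Ctsz and Ctsh. The intragenic Tfeb region fell by 2.84 (SE 0.47, adjusted p 0.0055), from a score of 4.16 ± 0.52 in wild-type to 1.32 ± 0.25 in IRF8KO MDP. Another Tfeb region, 1.21 kb upstream of a listed start, went the opposite way. Its mean score was 0.65 in wild-type and 1.57 in IRF8KO MDP (difference 0.93, SE 0.12, limma adjusted p 0.0019). The Ctsz start fell by 2.40 (SE 0.54, adjusted p 0.021), with knockout rows of 470 and 172 against 51 and 57, and this call was lost without either wild-type library (adjusted p 0.1 and 0.079) or knockout replicate 1 (0.096). A region inside Ctsh, chr9:90059666-90061755, chosen after its values were seen, had no peak and row 35597 in LT-HSC, rows 12117 and 8867 in LMPP, 5631 and 8823 in MDP, 8430 and 5058 in CDP, and no peak and row 39679 in IRF8KO MDP. It fell by 2.15 in the knockout (SE 0.30, adjusted p 0.0028), to the level of LT-HSC. The Psap regions at 14.4 and 3.96 kb upstream fell by 1.43 (SE 0.15, adjusted p 0.00076) and 1.26 (SE 0.11, adjusted p 0.0003). The start region of Lgmn fell by 1.28 (SE 0.32, adjusted p 0.032). Of these, the Ctsh and Lgmn regions had not passed the test from LMPP to MDP (differences of 0.56 and 0.44, adjusted p 0.21 and 0.35). The lost region with the best position lay inside Ctss, chr3:95529608-95530499, with rows 23415 and 16759 in MDP, 15687 and 16359 in CDP, 62115 in LMPP replicate 2 and no peak in LMPP replicate 1, LT-HSC or the knockout. It fell by 0.66 (SE 0.14, adjusted p 0.018, and 0.09 or 0.089 without either knockout library).

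Among genes, Atp6v0d1, Grn, Mcoln1, Psap and Tpcn2 had a net loss of 2 regions in the knockout. Ctsa, Ctsh, Ctss, Hexa, Lamp2, Lgmn and Lipa, with Smpd1 and Tpp1, had a net loss of 1. The lost regions of Grn, Mcoln1, Ctsa, Ctsh and Smpd1 were nearer to another protein-coding gene, as were some of Atp6v0d1, Lgmn and Psap. The remaining lost regions of these genes had the lysosome gene as the nearest. The counts by role stand beside 8.99% of all regions lost and 2.69% gained. Proteases lost 7 of 97 and gained 5, ion channels lost 5 of 38 and gained 1, and glycosidases gained 4 of 70 and lost 2. Lipid enzymes and carriers lost 4 of 48 and gained 1, and membrane glycoproteins lost 2 of 41 and gained 1. Proton pump genes lost 3 of 21 and gained 1, and Tfeb and Grn together lost 2 of 18 and gained 2. Ctsd, Neu1 and Tfeb had a net gain of 2, and Ctsc, Manba and Npc1 of 1.

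Regions open only in the knockout numbered 10 of 333 (3.0%, against 1.76% of all regions and 1.68% near genes), at Atp6v1a, Ctsb, Ctsc, Ctsd, Lgmn, Manba, Neu1, Npc1, Scarb2 and Tpcn2. The one with the best position was inside Scarb2, chr5:92486644-92487171, at rows 13671 and 15929 in IRF8KO MDP and with no peak in the other 8 libraries (difference 1.09, SE 0.08, adjusted p 0.00014). Its score was 1.09 ± 0.16 (SD) in the knockout and 0 in every other library, so this SE can be too small. A region inside Ctsb, chr14:63130461-63132903, had rows 30521 and 22252 in wild-type MDP, 14348 and 25310 in CDP, 11308 and 12505 in the knockout and none in LT-HSC or LMPP. It rose by 1.13 in the knockout (SE 0.27, adjusted p 0.025, and 0.084 to 0.14 when wild-type replicate 1 or a knockout library was left out). Detected neutrophil gene regions numbered 33 and 37 of 54 in wild-type and 33 and 32 in knockout MDP, and dendritic gene regions 64 and 70 of 92 against 47 and 55. Mature macrophage gene regions numbered 29 and 28 of 39 against 19 and 19, and monocyte-dendritic ones 38 and 36 of 64 against 31 and 33. For B cell genes the counts were 21 and 20 of 43 against 18 and 22. The mean share of all regions detected was 53.3% in wild-type and 44.15% in knockout MDP. The part of a change in the mix of sorted cells in these results was not tested.

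Taking all libraries at once, 84 of 333 lysosome gene regions (25.2%, against 17.0% of all regions and 19.6% of those near genes) were detected in all 10. A further 29 (8.71%, against 6.87% and 6.67%) were detected in both MDP and both CDP libraries and in none of LT-HSC or LMPP. Of these 29, 12 were also present in both knockout libraries (Atp6ap1, Ctsa, Ctsb, Ctsd, Ctsh, Hexa, Lgmn, Neu1, Npc2, Scarb2 and 2 of Tpcn2) and 13 were in neither (Atp6v0d1, Ctsb, Ctsh, Grn, Hexa, Lamp2, Lgmn, Lipa, Mcoln1, Psap, Scarb2, Tpcn2 and Tpp1). Genes such as Ctsb, Ctsh, Hexa, Lgmn, Scarb2 and Tpcn2 thus held regions of both kinds. Detection in LMPP alone was seen for 2 regions (0.601%, against 3.78%), at Asah1 and Npc1, and in CDP alone for 11 (3.3%, against 4.62%). The map of counts by gene and library shows where these regions sit.

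**Figure D5:**
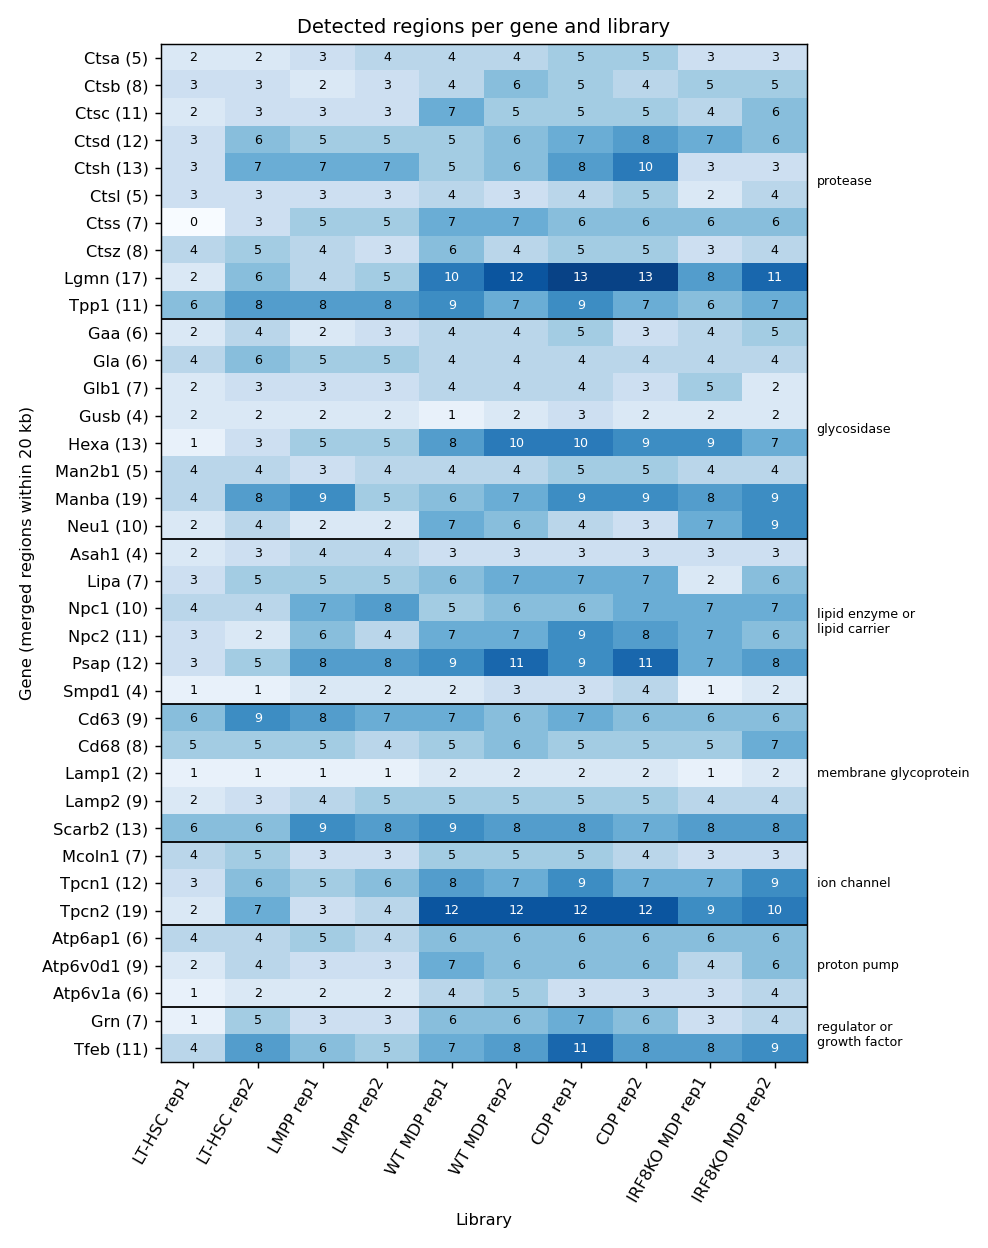
Number of detected regions for each of the 37 genes (rows, with the number of merged regions in brackets, grouped by role) in each of the 10 libraries (columns); darker blue is a higher count. Tpcn2 and Lgmn darken between LMPP and MDP (3 and 4 to 12 and 12, 4 and 5 to 10 and 12), and Lamp1, with 2 regions, and Gusb, with 4, differ little between libraries.

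Other lysosome genes, which were not among the 37, are given for comparison. Of 75 such genes 74 were matched, with 597 regions of their own. A further 6, all near Ctsk, are among the regions of its neighbour Ctss and were left out of these totals but not of the counts by gene. From LMPP to MDP 75 were gained (12.6%, beside 10.3% of all regions) and 25 lost (4.19%, beside 10.6%), and 36 genes had a net gain and 11 a net loss. The net gains were led by Laptm5 (a lysosomal membrane protein of blood cells, 6 of 15 gained), Tcirg1 (a V-ATPase subunit, 5 of 9), Galns (a sulfatase, 5 of 15), Sort1 (sortilin, a sorting receptor, 4 of 13) and Arsb (arylsulfatase B, 4 of 17). The net losses were led by Igf2r (6 of 16 lost) and M6pr (2 of 8), the receptors that sort hydrolases to lysosomes by their mannose 6-phosphate tag. Igf2r regions numbered 6 and 12 in LT-HSC, 14 and 15 in LMPP, 7 and 6 in MDP, 7 and 7 in CDP and 10 and 9 in IRF8KO MDP. From LT-HSC to LMPP 50 were gained (8.38%, beside 12.7%) and 11 lost (1.84%, beside 1.62%), with Ppt1 (palmitoyl-protein thioesterase) gaining 5 of 12. From MDP to CDP 36 were gained (6.03%, beside 6.48%) and 14 lost (2.35%, beside 3.64%). In the knockout 15 were gained (2.51%, beside 2.69%) and 45 lost (7.54%, beside 8.99%). Laptm5 and Sort1 lost 3 regions each and gained 0, Galns lost 3 and gained 1, Arsb lost 3 and gained 2, and Naglu gained 2.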

How the data were processed

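ATAC-seq peak lists of 10 libraries (5 groups of 2) were used. Per the submitters' processing notes, the tools were Bowtie 1.1.2 and HOMER 4.9, with genome mm10 (GRCm38). Per the file headers, the deposited lists give region start and end coordinates of peaks called in each library separately, with peak size 500, at most 1 tag per bp, an FDR threshold of 0.001 and 4-fold over the local region; neighbouring peaks were stitched, so a longer region can rank higher. The deposited score column is constant and no counts are given. Rows stand in runs of ascending genome order, as tied values in a sorted list would; giving each run its mean position left the limma counts of lysosome gene regions the same in all 4 comparisons. No transposase shift is recorded in the headers.

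Regions were merged and assigned with Python 3.11.15 and pandas 2.3.3, and scores fitted with limma 3.58.1 (R 4.3.3; trend, 10 libraries, 5 residual degrees of freedom, no replicate block, regions with a score above 0 in at least 2 libraries). On simulated data for LMPP to MDP (44994 regions) the fit recovered 19% of changes of 1 unit and 85% of changes of 2. There 4.59% of calls were false. The simulation gave every region the same noise and changed only 200 regions, so this false share need not hold for these data. Replicate numbers did not pair libraries (correlation of deviations -0.0563 to 0.0399 over 10 pairs of groups). In each comparison, genes with a net change, the best placed gained and lost region and the 2 regions with the largest limma change each way were named, and all Tpcn2 regions; exceptions are marked. The genes and lists were chosen with earlier results of these data known. Peaks show detection of open chromatin, not expression. Sequences are from RefSeq (GRCm38.p6); 5 genes (Asah1, Ctsb, Ctsh, Npc1, Tpcn1) had no window. Alternatives tried were a stricter overlap, shorter and equal lists, another score scale, no filter, single libraries left out and nearest-gene assignment.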

Additional observations from a re-analysis of the deposited data

How the results depend on the processing

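The 54 regions gained and 12 lost from LMPP to MDP kept their order under every detection alternative. Detection counts varied with list length and, with 2 libraries a group, with the library left out. The order turned with equal list length from LT-HSC to LMPP (7 gained and 15 lost). The fall in detected regions in the knockout also turned at equal list length (20 gained, 17 lost). Where only regions whose nearest gene was the lysosome gene were kept (an alternative chosen after seeing the data), 1 was lost from LT-HSC to LMPP and 7 from LMPP to MDP, 9 were gained from MDP to CDP, and 14 were lost in the knockout. The first 75% of the rows gave 5 lost from MDP to CDP and 12 lost in the knockout, and an overlap of 50% gave 36 gained from MDP to CDP. The cause of these shifts was not tested.

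Leaving out 1 library at a time gave ranges of 24 to 52 gained and 5 to 29 lost from LT-HSC to LMPP, 59 to 73 gained and 16 to 19 lost from LMPP to MDP, 24 to 28 gained and 14 to 22 lost from MDP to CDP, and 18 to 25 gained and 29 to 40 lost in the knockout. For limma the ranges, with the lone library assumed to vary like the other groups, were 7 to 9 higher and 20 to 22 lower from LT-HSC to LMPP, 33 to 46 higher and 4 to 9 lower from LMPP to MDP, 11 to 22 higher and 1 to 7 lower from MDP to CDP, and 6 to 10 higher and 8 to 15 lower in the knockout.

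With the score scaled to the longest list, limma called 27 higher from LT-HSC to LMPP, 84 higher and 19 lower from LMPP to MDP, 40 higher from MDP to CDP, and 26 higher and 27 lower in the knockout. Without a filter it called 7 higher from LT-HSC to LMPP, 6 lower from LMPP to MDP, 3 lower from MDP to CDP, and 6 higher and 8 lower in the knockout. The 4 libraries of a comparison alone gave 16 higher from MDP to CDP and 7 higher in the knockout. Without LT-HSC replicate 1 and with the next shortest list as the scale (chosen after seeing the data), 21 were lower from LMPP to MDP and 29 higher in the knockout. With the replicate number as a block the counts were 11 higher and 28 lower, 52 and 9, 24 and 7, and 11 and 12 in the 4 comparisons.

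Mean detected regions per library, in the order LT-HSC, LMPP, MDP, CDP and IRF8KO MDP, were 84.5, 113.0, 168.0, 206.0 and 149.5 with an overlap of 50%, and 56.5, 74.0, 93.0, 99.0 and 88.5 for the 145 regions centred inside a gene. With every list trimmed they were 105.5, 95.0, 127.0, 137.5 and 129.5. A net change of 2 or more was found in 30 pairs of gene and comparison. Over the alternatives, these values stayed the same in 122 checks, moved in 114 and turned sign in 4. Ctsc from LMPP to MDP (-1), Tpcn2 from MDP to CDP (3) and Tfeb in the knockout (-1) turned in the first 75% of rows. Tpcn2 in the knockout (1) turned at equal list length. Of 43 limma calls for named regions, 28 held under every alternative and none turned sign.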
